A study of Mus musculus with 24 samples.

Results

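Fgf21, Adm2 and Gdf15 encode 3 secreted stress hormones, and their transcripts were followed in the spinal cord of mice with or without a neuropathy allele of Gars and with 0, 1 or 2 intact copies of Gcn2. They were taken by symbol from the mouse GENCODE annotation and are 3 of the 38924 genes measured. They were selected on measured values, since earlier results from these same libraries had shown them high in cords with mutant Gars, so their levels are a description without a test. Every group was whole spinal cord from mice aged 8 weeks on the strain background labelled B6J;CASTxB6.129, profiled by stranded poly(A) RNA sequencing with paired reads of 75 bases. There were 5 Gcn2-/- GarsP278KY/+, 4 Gcn2+/- GarsP278KY/+ and 4 Gcn2+/+ GarsP278KY/+ libraries. The others were 3 Gcn2-/- Gars+/+, 4 Gcn2+/- Gars+/+ and 4 Gcn2+/+ Gars+/+ libraries. Of all libraries, 13 were labelled male and 11 female. The labels name the alleles without a promoter or a Cre driver, and do not say in words that each library is a separate animal, so p-values measure the spread between these libraries. The design asks how the response to mutant Gars depends on Gcn2.

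Gars encodes glycyl-tRNA synthetase, and dominant mutations in it cause an inherited axonal neuropathy, Charcot-Marie-Tooth disease type 2D. Gcn2, listed under the symbol Eif2ak4, is a kinase that responds to uncharged tRNA and stalled ribosomes by phosphorylating the translation factor eIF2 alpha. General translation then slows while the transcription factor ATF4 is made and switches on genes for amino acid supply, redox balance and secreted signals, a programme called the integrated stress response. Fgf21 is a hormone of the fibroblast growth factor family, best known from liver, that signals through FGF receptors with the co-receptor beta-klotho. Adm2, also called intermedin, is a peptide of the calcitonin gene-related peptide family that signals through the receptor Calcrl with a RAMP partner. Gdf15 is a distant member of the TGF beta family that acts on its receptor Gfral and the partner kinase Ret in the hindbrain, where it lowers food intake.

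Library totals ran from 19.7 to 32.4 M expected counts (M, mega). Eif2ak4 averaged 13.0 ± 1.28 CPM in Gcn2-/- GarsP278KY/+ cords, 22.4 ± 1.41 CPM in Gcn2+/- GarsP278KY/+ cords and 32 ± 1.01 CPM in Gcn2+/+ GarsP278KY/+ cords (SD, n = 5, 4 and 4; CPM, counts relative to the TMM-scaled library total), so transcript was still counted in Gcn2-/- cords and its level followed the labels. Gars averaged 143 ± 6.90 CPM in Gcn2+/+ GarsP278KY/+ cords and 139 ± 3.84 CPM in Gcn2+/+ Gars+/+ cords (SD, n = 4 each). The tissue label fitted the markers: summed motor neuron markers lay between 725 and 1370 CPM and summed oligodendrocyte markers between 11100 and 19200 CPM in every library. Libraries differed in nerve root content: 4 of the 24 had over 200 summed CPM of 7 Schwann cell markers, namely Gcn2+/+ GarsP278KY/+ replicates 2 and 4 and Gcn2+/- Gars+/+ replicates 1 and 3 (the nerve root libraries). These 4 were also the highest in 10 summed markers of meninges and fibroblasts, at 373 and 1470 CPM in the mutants and 315 and 788 CPM in the Gars+/+ cords, and Gcn2+/+ GarsP278KY/+ replicate 2 alone had 68.1 CPM of 5 skeletal muscle markers, against at most 2.96 CPM in the other libraries. Fits without the nerve root libraries keep only replicates 1 and 3 of Gcn2+/+ GarsP278KY/+ and replicates 2 and 4 of Gcn2+/- Gars+/+, and so have less power.

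Fgf21 (ENSMUSG00000030827; GRCm38 chr7:45613886-45615490, minus strand, 1 transcript of 3 exons) was the most abundant of the 3 transcripts and was close to absent unless mutant Gars and intact Gcn2 were both present. With both Gcn2 copies intact, it had 82, 108, 165 and 97 counts in the 4 GarsP278KY/+ libraries and 0, 0, 1 and 0 in the 4 Gars+/+ libraries, so the groups did not overlap. These are 2.91, 3.56, 5.58 and 3.68 CPM in the mutants, a mean of 3.93 ± 1.15 CPM (SD, n = 4), against 0.00943 ± 0.0189 CPM in the Gars+/+ cords (SD, n = 4), a difference of 3.92 CPM. The ratio of 437 has a 95% interval of 78.0 to 17292, an exact binomial interval that covers counting error only and is wide because the wild-type group holds 1 count. For any transcript in whole cord, more cells of a type and more RNA per cell cannot be told apart.

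With 1 intact Gcn2 copy, Fgf21 had 49, 34, 39 and 75 counts in GarsP278KY/+ cords and 0, 0, 0 and 1 in Gars+/+ cords, again without overlap. That is 1.90, 1.34, 1.94 and 2.77 CPM in the mutants, a mean of 1.99 ± 0.588 CPM (SD, n = 4), and a ratio of 172 (30.5 to 6831) over the Gars+/+ cords. Without Gcn2, Fgf21 had 1, 0, 0, 0 and 0 counts in the 5 GarsP278KY/+ libraries and 0, 0 and 1 in the 3 Gars+/+ libraries, so neither group exceeded the 3 counts taken as its floor and no fold is given. Those 3 counts equal 0.0214 CPM over the summed 140 M counts of the Gcn2-/- GarsP278KY/+ group. That is a level for scale and not an upper limit, since 1 count of Fgf21 was seen there.

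The 250 bases before the annotated start of Fgf21 hold a match to the C/EBP-ATF response element, the composite site that ATF4 is known to bind with a C/EBP partner, and are shown for that reason with the match in capitals (RefSeq, GRCm38.p6, chr7:45615491-45615740, minus strand, 5′ to 3′).
Fgf21: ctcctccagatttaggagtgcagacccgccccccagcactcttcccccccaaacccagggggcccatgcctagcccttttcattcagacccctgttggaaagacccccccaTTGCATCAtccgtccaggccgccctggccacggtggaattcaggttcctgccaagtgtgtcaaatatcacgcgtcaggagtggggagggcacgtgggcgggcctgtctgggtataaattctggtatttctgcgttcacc
The element is TGATGCAA, read here on the opposite strand, and its match spans positions -139 to -132 before the start. An E-box (CACGTG) lies at -50 to -45 and a TATA box (TATAAA) at -28 to -23. Over 32851 mouse promoters of 300 bases (250 before and 50 after the start), searched on both strands, 0.895% hold TGATGCAA, 7.15% CACGTG and 13.6% TATAAA. A match describes letters in this window and is not a measured binding site.

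Adm2 (ENSMUSG00000054136; GRCm38 chr15:89322720-89324731, plus strand, 1 transcript of 3 exons) followed the same order of groups at a lower level. With both Gcn2 copies intact, it had 21, 33, 41 and 17 counts in GarsP278KY/+ cords and 0, 1, 0 and 0 in Gars+/+ cords, without overlap. Its mean was 0.966 ± 0.338 CPM in the mutants and 0.00886 ± 0.0177 CPM in the Gars+/+ cords (SD, n = 4 each), a ratio of 108 (19.0 to 4313). With 1 copy, it had 10, 6, 14 and 11 counts in GarsP278KY/+ cords and 0 in each of the 4 Gars+/+ cords. With the Gars+/+ group set at a floor of 3 counts, the mutants were 11.9-fold higher. Without Gcn2, all 5 GarsP278KY/+ and all 3 Gars+/+ libraries had 0 counts, so Adm2 was not detected in any cord lacking Gcn2.

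Gdf15 (ENSMUSG00000038508; GRCm38 chr8:70629393-70632456, minus strand, 2 transcripts of 2 and 3 exons) was the lowest of the 3 and the only member with more than 1 count in any library outside the Gars mutants that had Gcn2. With both Gcn2 copies intact, it had 9, 15, 13 and 10 counts in GarsP278KY/+ cords and 1, 0, 0 and 3 in Gars+/+ cords, still without overlap. Its mean was 0.408 ± 0.0753 CPM in the mutants and 0.0347 ± 0.0473 CPM in the Gars+/+ cords (SD, n = 4 each), a ratio of 11.8. With 1 copy, it had 7, 1, 9 and 8 counts in GarsP278KY/+ cords and 0, 0, 1 and 0 in Gars+/+ cords, a ratio of 21.8 (3.57 to 897). Here replicate 2 of the mutants, with 0.0395 CPM, lay below the 0.0429 CPM of the highest Gars+/+ library, so these groups overlapped. Without Gcn2, it had 0, 3, 0, 2 and 1 counts in GarsP278KY/+ cords and 1, 0 and 0 in Gars+/+ cords, a ratio of 3.35 (0.407 to 154), and these groups overlapped.

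The upstream bases of Adm2 (chr15:89322470-89322719, plus strand) and of the upstream Gdf15 start (chr8:70632457-70632706, minus strand) are shown for comparison with Fgf21 (RefSeq, GRCm38.p6, 250 bases, 5′ to 3′, no capitals because no match was found).
Adm2: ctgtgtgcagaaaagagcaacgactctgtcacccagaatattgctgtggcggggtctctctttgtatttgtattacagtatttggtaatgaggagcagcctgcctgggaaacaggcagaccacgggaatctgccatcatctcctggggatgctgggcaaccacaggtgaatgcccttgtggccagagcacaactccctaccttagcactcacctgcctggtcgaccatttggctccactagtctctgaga
Gdf15: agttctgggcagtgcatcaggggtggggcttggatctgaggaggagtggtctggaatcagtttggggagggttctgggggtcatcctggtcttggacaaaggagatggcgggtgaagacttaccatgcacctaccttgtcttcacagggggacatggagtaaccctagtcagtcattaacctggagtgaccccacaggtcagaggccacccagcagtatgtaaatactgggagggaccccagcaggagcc
Neither window holds TGATGCAA, TGATGNAA, the CRE letters TGACGTCA, the unfolded protein response letters TGACGTGG, CACGTG or TATAAA. The E-box is present in the window of a downstream Gdf15 start, at -83 to -78. TGATGNAA, with 1 open base, is found in 3.97% of the promoters searched, TGACGTCA in 1.79% and TGACGTGG in 0.676%, and the TGATGCAA match of Fgf21 is also a TGATGNAA match.

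Groups without overlap also occurred for other genes among the 17409 tested. All Gcn2+/+ GarsP278KY/+ libraries lay above all Gcn2+/+ Gars+/+ libraries for 4.06% of genes, and for 3 of the 3 hormone genes. All Gcn2+/- GarsP278KY/+ libraries lay above all Gcn2+/- Gars+/+ libraries for 3.78% of genes, and for Fgf21 and Adm2. Since the hormones were chosen for this pattern, nothing is read from these counts. All 3 passed the filter on low counts, and only through the groups in which they are high.

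**Figure D1:**
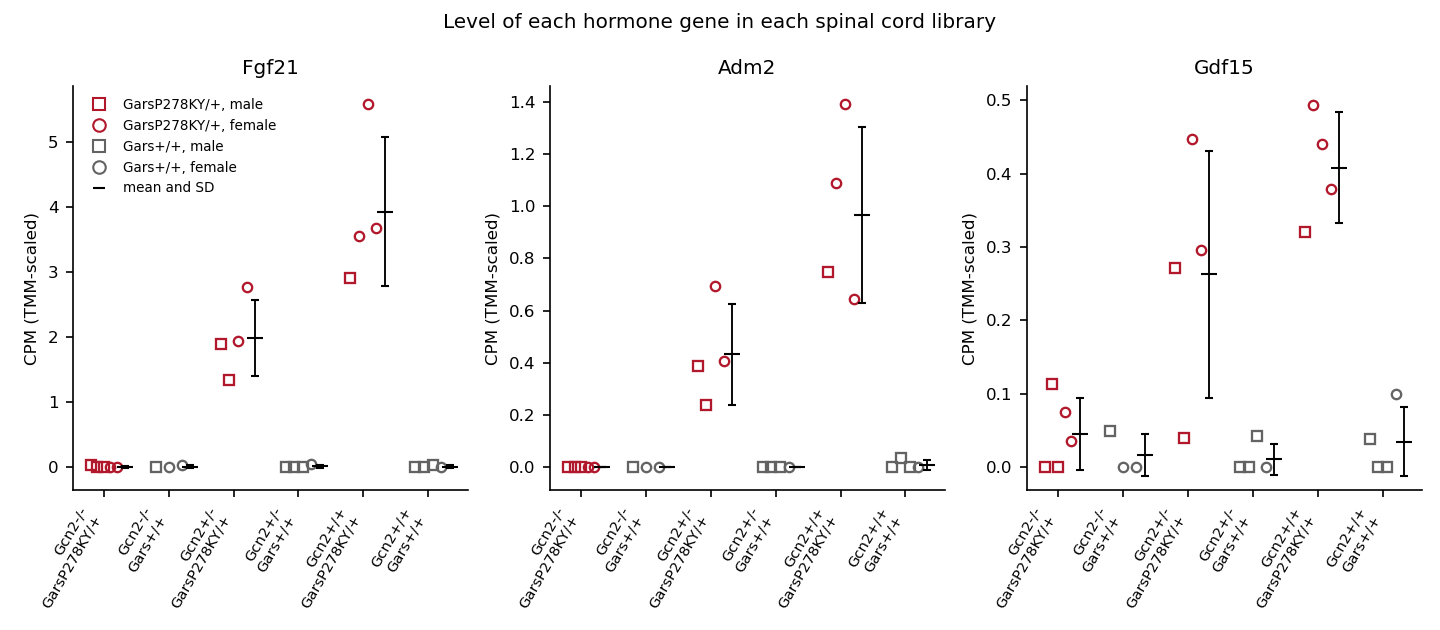
CPM of Fgf21, Adm2 and Gdf15 (y axis, TMM-scaled) in each of 24 libraries, by genotype (x axis). Squares are males and circles females, in red for GarsP278KY/+ and grey for Gars+/+, with the mean and SD of each group in black. Fgf21 and Adm2 leave the baseline in GarsP278KY/+ cords with 1 or 2 intact Gcn2 copies, where Fgf21 averaged 1.99 and 3.93 CPM.

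Among the GarsP278KY/+ cords, the 3 transcripts were graded by the number of intact Gcn2 copies. Fgf21 averaged 0.0062 ± 0.0139 CPM with 0 copies (SD, n = 5), 1.99 ± 0.588 CPM with 1 copy and 3.93 ± 1.15 CPM with 2 copies (SD, n = 4 each), so that 1 copy gave 50.5% of the level with 2. All 4 Fgf21 values with 1 copy, up to 2.77 CPM, lay below all 4 with 2 copies, from 2.91 CPM, but the gap between these nearest values is smaller than either SD. Adm2 with 1 copy had 44.7% of its level with 2, with 0.387, 0.237, 0.695 and 0.406 CPM with 1 copy and 0.746, 1.09, 1.39 and 0.645 CPM with 2, so that these groups overlapped. Gdf15 with 1 copy had 64.5%, with 0.271, 0.0395, 0.447 and 0.296 CPM with 1 copy and 0.320, 0.494, 0.440 and 0.379 CPM with 2, and these also overlapped.

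Between 0 and 2 copies, the difference was larger than the spread for all 3 genes. Fgf21 in Gcn2-/- GarsP278KY/+ cords had a mean CPM at 0.158% of that in Gcn2+/+ GarsP278KY/+ cords, and from the summed counts, 1 against 452, the ratio of rates was 0.00181 (4.57e-05 to 0.0101). With the Gcn2-/- mutants set at a floor of 3 counts, Adm2 was 45.6-fold lower there than in Gcn2+/+ mutants. Against Gcn2+/- mutants it was 19.5-fold lower by the same floor. Gdf15 was at 11% of its Gcn2+/+ mutant level, or 0.0451 ± 0.0494 CPM with 0 copies against 0.408 ± 0.0753 CPM with 2 copies (SD, n = 5 and 4). All Gcn2-/- mutants lay below all Gcn2+/+ mutants for each of the 3 genes and for 2.09% of all tested genes. All Gcn2+/- mutants lay below all Gcn2+/+ mutants for Fgf21 and for 2.93% of all tested genes. From highest to lowest, Fgf21 ran Gcn2+/+ mutants, Gcn2+/- mutants and then the other 4 groups, which differed from each other by less than their spread; Adm2 and Gdf15 had the same order, with their upper pair of groups overlapping, and Gdf15 in Gcn2+/- mutants also overlapped with the lower groups.

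Cdsn, which encodes the skin adhesion protein corneodesmosin, and B4galnt2, a glycosyltransferase gene, share this grading in earlier results and are given for scale. Cdsn was at 6.01% with 0 copies and 35.4% with 1 copy of its mean of 3.27 ± 0.885 CPM with 2 copies (SD, n = 4), and B4galnt2 at 7.45% and 51.2% of 1.08 ± 0.363 CPM. Unlike Fgf21 and Adm2, both had counts in all 5 Gcn2-/- GarsP278KY/+ libraries, 28 in sum for Cdsn and 11 for B4galnt2. Whether the percentages with 1 copy differ between the 5 genes was not tested.

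**Figure D2:**
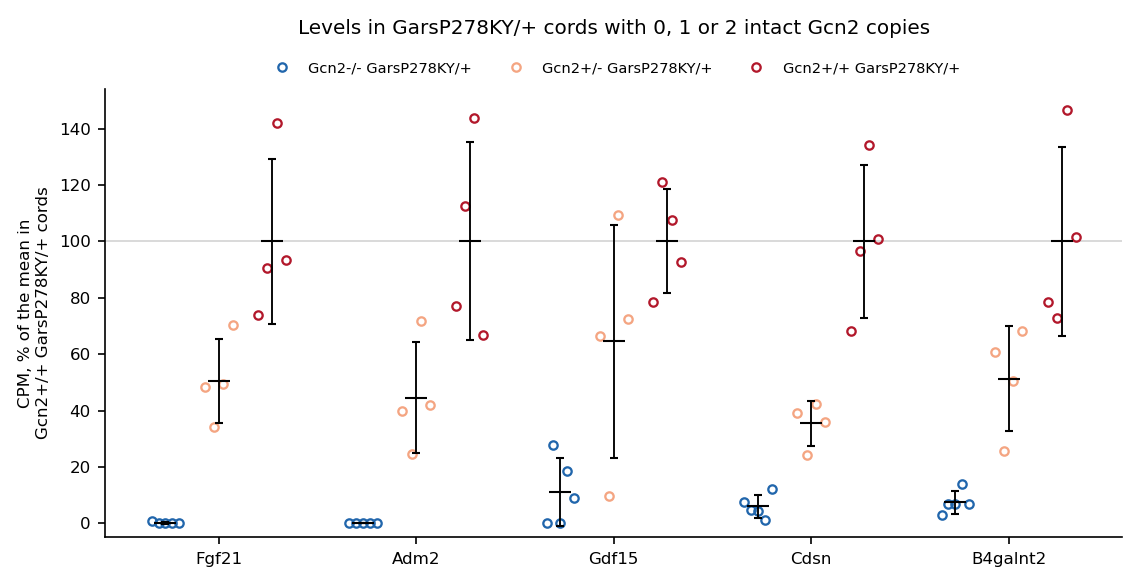
CPM of Fgf21, Adm2, Gdf15, Cdsn and B4galnt2 (x axis) in GarsP278KY/+ cords, as % of the mean in Gcn2+/+ GarsP278KY/+ cords (y axis). Circles are libraries, by Gcn2 genotype, and black bars the mean and SD. With 1 copy the means lie between 35.4% and 64.5%, and with 0 copies between 0% and 11%.

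On a scale per transcript length, the deposited TPM (transcript abundance relative to the library), Fgf21 exceeded the other hormones in every mutant with Gcn2. In Gcn2+/+ GarsP278KY/+ cords, Fgf21 averaged 10.6 ± 2.96 TPM, Adm2 2.24 ± 0.783 TPM and Gdf15 0.618 ± 0.114 TPM (SD, n = 4). Per 100 TPM of Fgf21 there were 12.5, 15.2, 17.4 and 30.8 TPM of Adm2 in the 4 Gcn2+/- GarsP278KY/+ libraries, and 15.0, 21.2, 21.8 and 26.1 TPM in the 4 Gcn2+/+ GarsP278KY/+ libraries, in rising order. For Gdf15 these were 1.75 to 13.8 TPM in Gcn2+/- mutants and 4.3 to 7.72 TPM in Gcn2+/+ mutants. The ranges of both ratios overlapped, so the proportions of the 3 transcripts were not separated by Gcn2 copy number at this depth.

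The pattern was present in each sex and in each set of title numbers. The mutant minus wild-type difference of Fgf21 with 2 Gcn2 copies was 2.90 CPM in males alone and 4.27 CPM in females alone, and with 1 copy 1.62 CPM in males and 2.30 CPM in females. Within each of these mutant groups every female had more Fgf21 than every male, with 1 male among the 4 Gcn2+/+ mutants and 2 among the 4 Gcn2+/- mutants, which is too few to compare. Libraries whose titles begin with 24905 to 25006, numbers whose meaning is not stated, gave an Fgf21 difference of 4.21 CPM with 2 copies and 2.03 CPM with 1 copy. Those with 25102 to 25801 gave 3.62 CPM and 1.92 CPM. Number 24905 alone is shared by mutants with 1 and with 2 Gcn2 copies, and there Fgf21 had 1.34 CPM with 1 copy against 2.91 and 5.58 CPM with 2.

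Libraries rich in nerve root occurred both with and without the hormone transcripts. The summed CPM of 7 Schwann cell markers was 79.4, 381, 88.5 and 633 in Gcn2+/+ GarsP278KY/+ replicates 1 to 4, where Fgf21 was 2.91, 3.56, 5.58 and 3.68 CPM, so the 2 libraries rich in nerve root lay between the other 2. The Gcn2+/- Gars+/+ replicates 1 and 3, with 352 and 574 CPM of these markers, had 0 counts of Fgf21 and of Adm2. Without the 4 nerve root libraries, a choice made after seeing the data, the Fgf21 difference was 4.24 CPM with 2 Gcn2 copies and 1.96 CPM with 1 copy. Liver and adipose markers, from tissues that are major sources of Fgf21, summed to at most 1.08 CPM in any library, and 1 of the 5 passed the filter. The part of other tissues in the hormone levels was not tested.

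**Figure D3:**
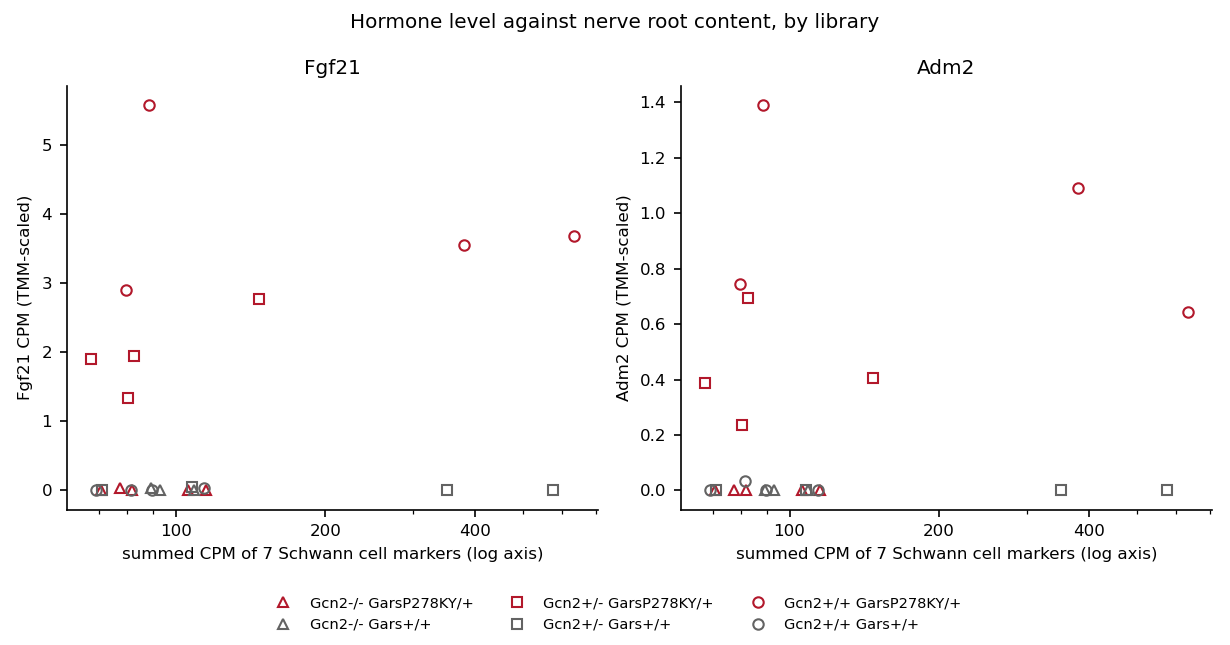
Fgf21 and Adm2 CPM (y axes) against the summed CPM of 7 Schwann cell markers (x axis, log scale) in each of 24 libraries, by genotype. Libraries near 352 and 574 CPM on the x axis without mutant Gars lie at 0 on both y axes.

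Some markers of 2 neuron types moved with mutant Gars and others did not, and their part in the hormone levels was not tested. Of 6 tested motor neuron markers, 0 changed with Gcn2-/- (0 at an unadjusted p below 0.05), 3 fell with Gcn2+/- and 4 fell with Gcn2+/+ (adjusted p below 0.05, edgeR, and the same counts with DESeq2), with 3 left in each of these 2 genotypes without the 4 nerve root libraries. Of all tested genes, 0.0115% were called with Gcn2-/-, 0.178% with Gcn2+/- and 0.632% with Gcn2+/+ by edgeR in either direction, 0.15%, 1.07% and 4.49% by DESeq2, and 4.35%, 14.7% and 17.3% had an unadjusted p below 0.05 in edgeR. Chat, the acetylcholine-synthesising enzyme, changed by -0.04 ± 0.07 with Gcn2-/-, -0.53 ± 0.07 with Gcn2+/- and -0.55 ± 0.07 with Gcn2+/+ on the log2 scale (± SE). The summed motor neuron markers were 1110 to 1230 CPM in Gcn2-/-, 904 to 985 CPM in Gcn2+/- and 725 to 933 CPM in Gcn2+/+ mutants, against 1190 to 1280 CPM in Gcn2+/+ Gars+/+ cords. Most of this sum is the neurofilament gene Nefh, with means of 1020, 812 and 715 CPM in these mutants and 1050 CPM in the Gars+/+ cords. With Gcn2+/+, the identity factors Mnx1 and Isl1 differed by 0.04 ± 0.25 and -0.48 ± 0.21 (adjusted p = 0.963 and 0.246, edgeR). Among 6 markers of dorsal root ganglion sensory neurons, whose sum was 1.66 to 2.31, 2.96 to 4.84 and 6.11 to 7.85 CPM in the mutants with 0, 1 and 2 copies, against 1.44 to 2.45 CPM in Gcn2+/+ Gars+/+ cords, only 2 passed the filter. P2rx3, an ATP-gated channel, rose by 1.86 ± 0.21 with Gcn2+/+ (adjusted p = 5.4e-05, edgeR) and by 1.19 ± 0.21 with Gcn2+/- (0.0132), and the actin-binding gene Avil rose by 2.43 ± 0.43 with Gcn2+/+ (0.00706). P2rx3 lost its Gcn2+/- call in 4 of 32 alternatives, and Avil was not called without the 4 nerve root libraries. DESeq2 did not call Avil either, but with Gcn2+/+ it gave an adjusted p to only 14668 of the 17409 tested genes. Whether Avil was among them is not shown here. These 2 genes made up most of the sum in Gcn2+/+ mutants, at means of 4.76 CPM for P2rx3 and 1.95 CPM for Avil. Mrgprd, a defining marker, had 0 counts outside the Gcn2+/+ mutants and 1 count within them. In Gcn2+/+ mutants and Gcn2+/+ Gars+/+ cords, Scn10a averaged 0.0695 ± 0.0733 and 0.0449 ± 0.067 CPM, and Prdm12 0.0344 ± 0.027 and 0.0189 ± 0.0377 CPM. Trpv1 averaged 0.232 ± 0.138 and 0.0908 ± 0.0224 CPM in the same groups (SD, n = 4 each).

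Among 13552 genes with a mean of at least 1 CPM, P2rx3 was also the one most like each hormone. Likeness was taken as the Pearson r of log2(CPM + 0.5) over the 24 libraries, as a description in which the 8 libraries with mutant Gars and Gcn2 stand apart from the other 16. For Fgf21 the 5 nearest were P2rx3 (r = 0.92), the glycogen-binding gene Stbd1 (0.89), the stress-induced mTORC1 inhibitor Sesn2 (0.86), the cationic amino acid transporter Slc7a1 (0.86) and the glutathione-degrading Chac1 (0.84). For Adm2 they were the same 5 genes, from 0.92 to 0.84, and for Gdf15 P2rx3 (0.86), Chac1 (0.85), Stbd1 (0.83), Zcchc14 (0.83) and Sesn2 (0.82). Between the hormones themselves, r was 0.97 for Fgf21 and Adm2, 0.94 for Adm2 and Gdf15 and 0.91 for Fgf21 and Gdf15. Cdsn and B4galnt2, whose means are too low for the ranking, had higher r than P2rx3 with each hormone, 0.96, 0.97 and 0.9 for Cdsn and 0.97, 0.95 and 0.91 for B4galnt2 with Fgf21, Adm2 and Gdf15. In CPM, P2rx3 averaged 1.52 ± 0.212, 2.99 ± 0.830 and 4.76 ± 0.840 in mutants with 0, 1 and 2 copies, against 1.39 ± 0.347 in Gcn2+/+ Gars+/+ cords, and so had a baseline that Fgf21 and Adm2 lack.

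Transcripts of the hormones' receptors were measured in the cord, Gfral only at trace level, and 0 of 12 tested receptor genes passed the edgeR test in any Gcn2 genotype. At an unadjusted p below 0.05 the receptor counts were 0, 2 and 2 of 12, beside 4.35%, 14.7% and 17.3% of all tested genes, and their median log2 change was -0.06, -0.12 and 0.14, beside 0.00, -0.01 and 0.01 for all tested genes. DESeq2 called 0, 0 and 2, with Fgfr1 higher and Ret lower in the Gcn2+/+ mutants, beside 0.15%, 1.07% and 4.49% of all genes to which it gave an adjusted p. Fgfr1, the main FGF receptor partner of beta-klotho, averaged 78.1 TPM over the 24 libraries, Fgfr2 98.0 TPM and Fgfr3 126 TPM, whereas Fgfr4 (0.379 TPM) and the beta-klotho gene Klb (0.225 TPM, 264 counts in all) were low. Kl, the related klotho co-receptor used by Fgf23, averaged 2.17 TPM.

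With Gcn2+/+, Fgfr1 differed by 0.21 ± 0.07 (adjusted p = 0.126, edgeR) and Klb by 0.23 ± 0.43 (0.830) on the log2 scale. The Gars effect on Fgfr1 was -0.15 ± 0.06 with Gcn2+/- and 0.21 ± 0.07 with Gcn2+/+, and the difference of -0.36 ± 0.09 passed the test (adjusted p = 0.0407, edgeR). That difference between Gcn2+/- and Gcn2+/+ was called for 3.7% of all tested genes, and the nerve root libraries fall on the mutant side of 1 genotype and on the wild-type side of the other. It was called for 0 genes without the 4 nerve root libraries, a choice made after seeing the data, or with the Schwann markers as a covariate. Leaving out these libraries also lowers power, and the share of lost power in the lost calls was not tested. For Adm2, the receptor Calcrl averaged 14.9 TPM and differed by -0.08 ± 0.19, and its partners Ramp1 (31.8 TPM), Ramp2 (25.2 TPM) and Ramp3 (3.18 TPM) by 0.19 ± 0.13, 0.17 ± 0.20 and 0.07 ± 0.22 with Gcn2+/+ (adjusted p from 0.471 to 0.903, edgeR). The calcitonin receptor Calcr, at 0.280 TPM, differed by 0.15 ± 0.39. For Gdf15, Gfral had 12 counts over all 24 libraries and was too low to test, while its partner Ret averaged 34.3 TPM and differed by -0.31 ± 0.08 with Gcn2+/+ (adjusted p = 0.0583, edgeR).

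Of the relatives of the 3 hormones, 9 of the 12 matched genes could be tested, and the calcitonin gene-related peptides fell in every Gcn2 genotype. Calca, which encodes calcitonin and CGRP alpha, changed by -1.96 ± 0.19 with Gcn2-/-, -1.88 ± 0.19 with Gcn2+/- and -2.25 ± 0.19 with Gcn2+/+ on the log2 scale (adjusted p = 1.97e-05, 2.21e-05 and 1.61e-06, edgeR). It averaged 4.84 ± 0.711 CPM in Gcn2-/- GarsP278KY/+ cords and 19.6 ± 5.53 CPM in Gcn2-/- Gars+/+ cords (SD, n = 5 and 3), and 5.14 ± 1.39 CPM in Gcn2+/+ GarsP278KY/+ cords and 23.2 ± 1.72 CPM in Gcn2+/+ Gars+/+ cords (SD, n = 4 each). Calcb, which encodes CGRP beta, changed by -1.0 ± 0.16, -1.24 ± 0.16 and -1.67 ± 0.16 with Gcn2-/-, Gcn2+/- and Gcn2+/+ (adjusted p = 0.0248, 0.00058 and 9.46e-06, edgeR), with the Gcn2-/- call lost in 10 of 32 alternatives and the Gcn2+/- call in 2. These peptides use the same receptor Calcrl as Adm2, and their change was in the opposite direction to that of Adm2 and was called in Gcn2-/- cords, where Adm2 was not detected. The difference of the Gars effect, Gcn2-/- minus Gcn2+/+, was 0.29 ± 0.28 for Calca and 0.67 ± 0.23 for Calcb (adjusted p = 0.937 each, edgeR), a test passed by 0.0115% of all tested genes.

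The other tested relatives did not pass. Adm, the adrenomedullin gene, differed by -0.29 ± 0.30 with Gcn2+/+ (adjusted p = 0.670, edgeR), and Gdf10, of the TGF beta family like Gdf15, by 0.67 ± 0.24 (0.159). Fgf23, an endocrine FGF like Fgf21, differed by 0.11 ± 0.41 (0.924). The mouse gene Fgf15, the remaining endocrine FGF, had 14 counts over all libraries, Mstn 82 and Iapp 0, all too low to test, and Gdf1 was not matched.

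**Figure D4:**
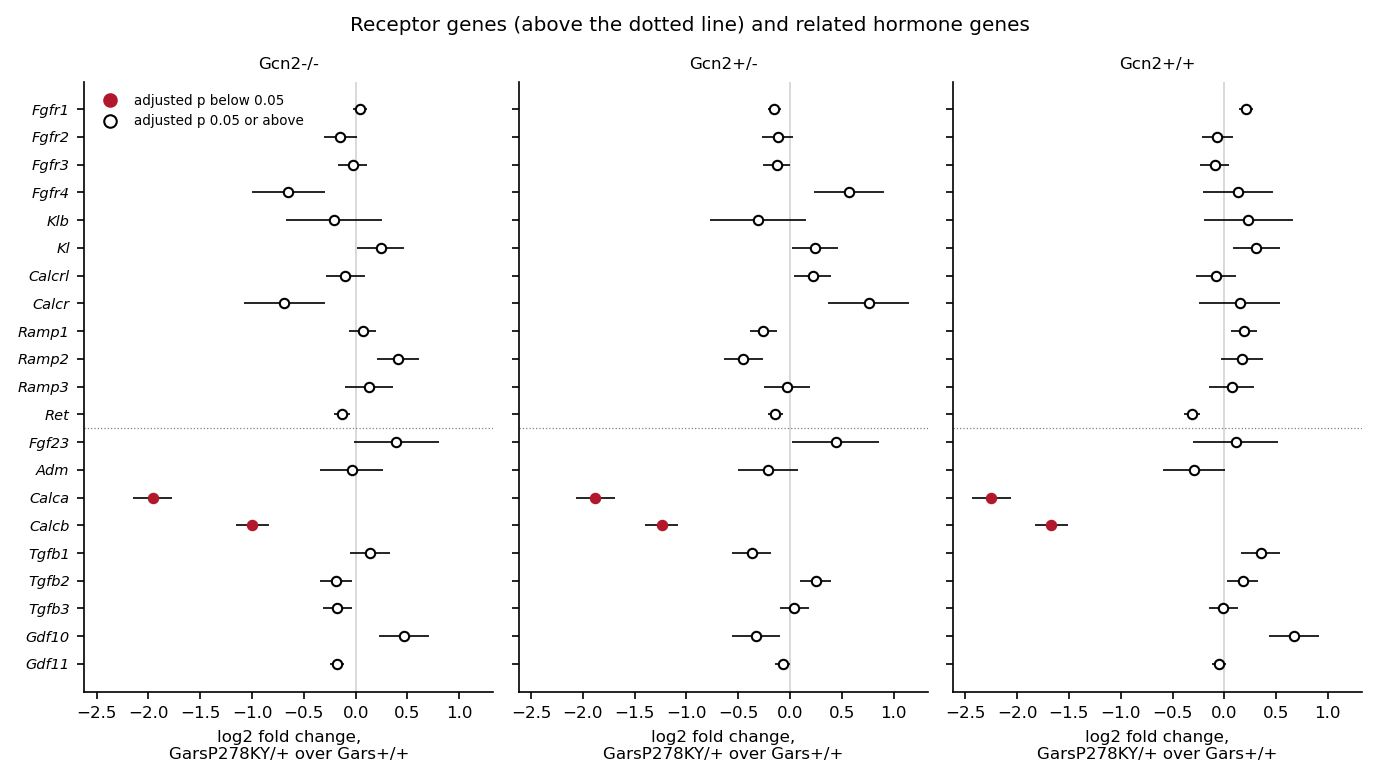
Log2 fold change of GarsP278KY/+ over Gars+/+ (x axis, edgeR, bars show the SE) for the tested receptor genes and relatives of the 3 hormones (y axis), by Gcn2 genotype. Red points have an adjusted p below 0.05: Calca and Calcb in each of the 3 panels.

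Of 13 stress transcription factors, Atf4 alone passed the edgeR test of the Gars effect, and with both Gcn2 copies intact, where 0.632% of all tested genes passed. DESeq2 called Atf4 with Gcn2+/+ too, and Tfe3 lower with Gcn2+/-, beside 4.49% and 1.07% of all genes to which it gave an adjusted p. At an unadjusted p below 0.05 in edgeR there were 2, 5 and 5 of the 13 with Gcn2-/-, Gcn2+/- and Gcn2+/+, beside 4.35%, 14.7% and 17.3% of all tested genes. Atf4 averaged 94.4 ± 5.27 CPM in Gcn2+/+ GarsP278KY/+ cords and 71.6 ± 4.67 CPM in Gcn2+/+ Gars+/+ cords (SD, n = 4 each), a rise of 0.44 ± 0.07 on the log2 scale (adjusted p = 0.00194, edgeR). Its change was 0.23 ± 0.07 with Gcn2-/- (adjusted p = 0.878, unadjusted p = 0.00294, edgeR). With Gcn2+/- it was 0.23 ± 0.07 (adjusted p = 0.187, unadjusted p = 0.00222, edgeR). The test of the difference from Gcn2+/+ did not pass for either (adjusted p = 0.937 and 0.173, edgeR). The Atf4 call was lost without the 4 nerve root libraries, where the change was 0.41 (adjusted p = 0.0669, edgeR), and in a fit of the 2 groups alone, where it was 0.38 (0.322). ATF4 is controlled mainly through translation, which these data do not measure. With Gcn2+/+, Ddit3, which encodes the factor CHOP, differed by 0.28 ± 0.13 (0.285), Atf5 by 0.43 ± 0.14 (0.144), Cebpb by 0.70 ± 0.33 (0.288) and Trp53, a known regulator of Gdf15, by 0.23 ± 0.08 (0.159). The difference for Trp53 between Gcn2+/- and Gcn2+/+, -0.47 ± 0.11 (adjusted p = 0.0399, edgeR), is of the kind called in 3.7% of genes and in none without the nerve root libraries.

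Of 27 other integrated stress response targets, 0 rose with Gcn2-/-, 0 with Gcn2+/- and 3 with Gcn2+/+ (edgeR, adjusted p below 0.05), and 0 fell in any of these. DESeq2 called 0, 0 and 7, beside 0.15%, 1.07% and 4.49% of all genes to which it gave an adjusted p. At an unadjusted p below 0.05 in edgeR there were 4, 11 and 12 of the 27, beside 4.35%, 14.7% and 17.3% of all tested genes, and the list's median log2 change was 0.13, 0.20 and 0.23, beside 0.00, -0.01 and 0.01 for all tested genes. With Gcn2+/+ the called genes were Sesn2 (0.63 ± 0.09, adjusted p = 0.00101), the chromatin-associated stress gene Nupr1 (2.53 ± 0.51, 0.0212) and Shmt2, of mitochondrial one-carbon metabolism (0.41 ± 0.09, 0.0453). Sesn2 averaged 27.8 ± 3.84 CPM in Gcn2+/+ GarsP278KY/+ cords and 17.8 ± 0.9 CPM in Gcn2+/+ Gars+/+ cords, and Nupr1 averaged 8.36 ± 5.93 CPM in the same mutants and 1.49 ± 0.290 CPM in the same Gars+/+ cords (SD, n = 4 each). Just short of a call lay the proline enzyme Pycr1 (0.96 ± 0.24, 0.0597), Chac1 (0.53 ± 0.14, 0.0798) and Slc7a1 (0.29 ± 0.08, 0.0811), whereas Asns, asparagine synthetase, differed by 0.20 ± 0.06 (0.132) and Trib3 by 0.42 ± 0.39 (0.624). The Shmt2 call was lost in 21 of 32 alternatives.

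The count of 3 was 2 without the 4 nerve root libraries, 1 with the Schwann markers as a covariate and 0 in a fit of the 2 groups alone. Nupr1 was at 6.94 CPM in the nerve root library Gcn2+/- Gars+/+ replicate 3, and with the Schwann covariate its change was 1.67 (adjusted p = 0.0659, edgeR). Its difference between Gcn2+/- and Gcn2+/+, -2.41 ± 0.65 (0.047), was among those called in 3.7% of genes. The C/EBP-ATF letters TGATGCAA seen upstream of Fgf21 were in 5 of the 22 targets that have a promoter in the table, Chac1, Nupr1, Pycr1, Slc7a11 and Vldlr. Of all promoters searched, 0.895% hold these letters, though a gene can have more than 1 promoter. Among these 5 genes with Gcn2+/+, Nupr1 passed the edgeR test, and DESeq2 called Chac1, Nupr1 and Pycr1. Slc7a11 differed by 0.27 ± 0.32 (adjusted p = 0.713, edgeR) and Vldlr by -0.11 ± 0.09 (0.559).

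**Figure D5:**
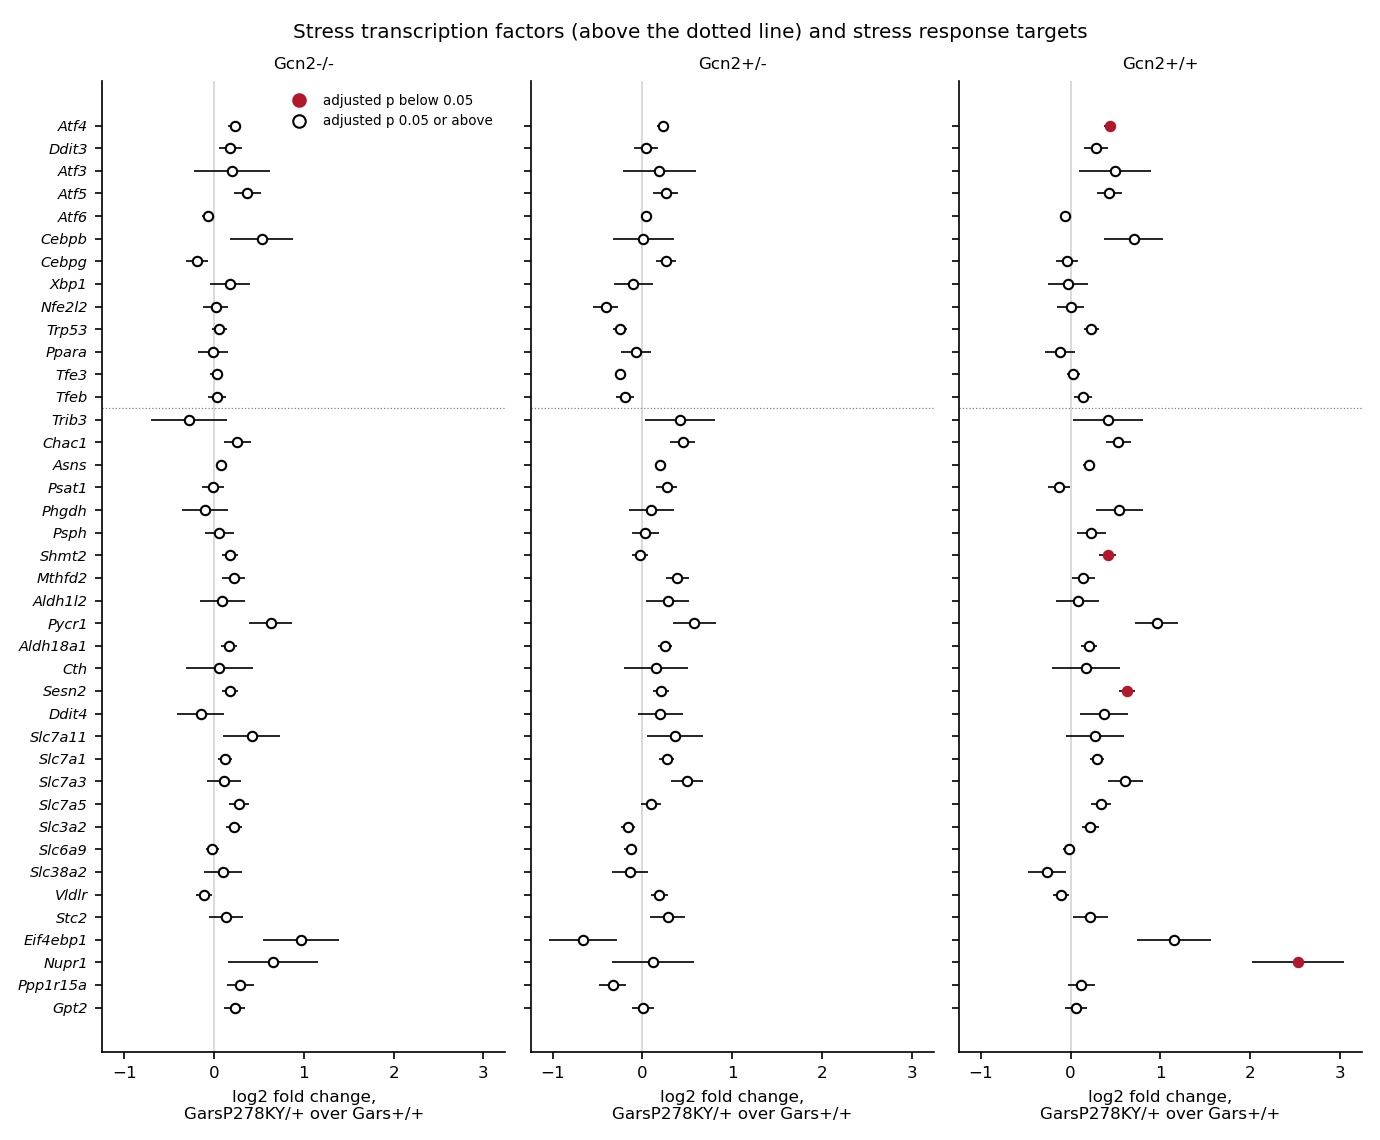
Log2 fold change of GarsP278KY/+ over Gars+/+ (x axis, edgeR, bars show the SE) for 13 stress transcription factors and 27 integrated stress response targets (y axis), by Gcn2 genotype. Red points have an adjusted p below 0.05: Atf4, Shmt2, Sesn2 and Nupr1 in the Gcn2+/+ panel and none in the others.

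Genes that can report signalling by the hormones did not pass the edgeR test in any Gcn2 genotype. Of 18 genes induced by FGF signalling, 0 were called, and with Gcn2+/+ 14 lay below 0, with a median of -0.20 beside 0.01 for all tested genes. At an unadjusted p below 0.05 there were 0, 4 and 4 of the 18 with Gcn2-/-, Gcn2+/- and Gcn2+/+, beside 4.35%, 14.7% and 17.3% of all tested genes. DESeq2 called 0, 0 and 2, namely Spred1 and Spry2, both lower in the mutants, beside 0.15%, 1.07% and 4.49% of all genes to which it gave an adjusted p. The FGF feedback inhibitors Spred1 (-0.44 ± 0.13), Spry2 (-0.32 ± 0.10) and Dusp6 (-0.37 ± 0.14) had the smallest p-values with Gcn2+/+ (adjusted p = 0.108, 0.117 and 0.188, edgeR). Spred1 changed by 0.34 ± 0.13 with Gcn2+/- and -0.44 ± 0.13 with Gcn2+/+, a difference of 0.78 ± 0.18 (0.0399). Such a difference was called in 3.7% of genes, and in none without the nerve root libraries, a fit with less power. Of 9 cAMP response genes, which the Adm2 receptor can induce, 0 were called by edgeR or DESeq2, with medians of 0.09, -0.12 and -0.02 with Gcn2-/-, Gcn2+/- and Gcn2+/+. At an unadjusted p below 0.05 there were 2, 2 and 1 of the 9, beside 4.35%, 14.7% and 17.3% of all tested genes.

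Other stress lists held 0 called genes for the Gars effect in each Gcn2 genotype, with edgeR and with DESeq2. Of 10 tested genes for other secreted stress proteins, 0, 1 and 1 had an unadjusted p below 0.05 with Gcn2-/-, Gcn2+/- and Gcn2+/+, beside 4.35%, 14.7% and 17.3% of all tested genes. With Gcn2+/+, the lipase inhibitor Angptl4 differed by 0.69 ± 0.43 (adjusted p = 0.430, edgeR) and Vegfa, the endothelial growth factor, by -0.25 ± 0.11 (0.251), while Il6 (19 counts) and Igfbp1 (6 counts) were too low to test. Of 9 mitochondrial stress genes, 0, 3 and 1 had an unadjusted p below 0.05, beside the same shares of all tested genes. The Gars effect on the protease Yme1l1 differed between Gcn2+/- and Gcn2+/+ by 0.51 ± 0.13 (0.0431), again of the kind called in 3.7% of genes and in none without the nerve root libraries. Of 11 genes of the endoplasmic reticulum unfolded protein response, 0, 0 and 1 had an unadjusted p below 0.05, again beside these shares. With Gcn2+/+, 10 of them lay below 0, Herpud1 (0.25 ± 0.17, 0.474) being the exception.

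The nearest tested genes on either side of the hormones did not pass the test with Gcn2+/+. Only 0.632% of all tested genes passed it, so nothing is read from this. Of these neighbours, Lmf2 alone had an unadjusted p below 0.05 (0.0365, edgeR), beside 17.3% of all tested genes. Beside Fgf21, Rasip1 at 11998 bases differed by 0.27 ± 0.15 (adjusted p = 0.351, edgeR) and Bcat2, an aminotransferase gene, at 24175 bases by -0.09 ± 0.25 (0.897). Beside Adm2, Sbf1 at 7409 bases differed by 0.16 ± 0.08 (0.321) and Lmf2 at 26273 bases by 0.20 ± 0.09 (0.254). Beside Gdf15, Lrrc25 at 7910 bases differed by 0.54 ± 0.50 (0.625) and Pgpep1 at 13979 bases by 0.05 ± 0.13 (0.894). No matched gene overlaps Fgf21, Adm2 or Gdf15 in the annotation, and all their expected counts were whole numbers in all 24 libraries.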

How the data were processed

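Poly(A) RNA of whole spinal cord was sequenced in 24 libraries of 6 genotype groups, which were read from the labels. The authors deposited 2 values for each gene, an expected count and a TPM, and the submitters' processing notes list RSEM (1.2.12) with Bowtie2 (2.2.0). Reads that match more than 1 gene are divided among them in expected counts; 72.0% of values above 0 were whole to within 0.005. The genome build is not given in the sources used here. Of 38924 genes, 37607 matched GENCODE release M21 (GRCm38) by identifier.

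Expected counts were rounded, filtered with filterByExpr by group (17409 genes left) and, after TMM scaling, tested by quasi-likelihood in edgeR (4.0.16, under R 4.3.3). A joint fit of all libraries held genotype group and sex, with Benjamini-Hochberg adjustment over all genes tested. The fit was tested on simulated counts. Alternatives included DESeq2 1.42.0. CPM uses TMM-scaled totals. Fgf21, Adm2 and Gdf15 were not tested. A group at 0 was given a floor of 3 counts over the group, with the count of the higher group taken as exact. Intervals cover counting error only, and folds against a floor leave out the counting error of the higher group. The hormones and all gene lists were chosen with earlier results of these data known.

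Genes named are the 3 hormones, every called gene of a pathway list (or up to 6 with the smallest p), all receptors measured, the 5 genes most like each hormone, the nearest tested neighbours, and Cdsn and B4galnt2. Eif2ak4 and Gars served as checks. Lists held 125 pathway genes and 12 sets of cell type markers, and some markers of these sets are not analysed here. Promoter sequences are from RefSeq (GRCm38.p6). The labels name more than 1 library kit without saying which library had which.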

Additional observations from a re-analysis of the deposited data

Results flagged for a closer look

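In groups of 4 or 5 libraries, these values stood apart from the rest of their group by Dixon's 95% criterion, which chance alone meets in about 5% of groups. Atf4 was at 111 CPM in Gcn2+/- GarsP278KY/+ replicate 1, against 90.0 to 93.0 CPM in the other 3 libraries. Nupr1 was at 6.94 CPM in Gcn2+/- Gars+/+ replicate 3, a library rich in nerve root, against 1.68 to 1.96 CPM, and at 1.92 CPM in Gcn2+/+ Gars+/+ replicate 1, against 1.32 to 1.38 CPM. Calca was at 17.0 CPM in Gcn2+/- Gars+/+ replicate 2, against 21.9 to 22.7 CPM, and Calcb at 4.56 CPM in Gcn2+/- Gars+/+ replicate 1, against 3.97 to 4.05 CPM. None of these values belongs to Fgf21, Adm2 or Gdf15. Groups whose highest count was 3 or fewer were passed over, so the hormones were examined only in Gars mutants with Gcn2. The number of groups screened over all genes is not given here.

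The Gars effect differed between Gcn2+/- and Gcn2+/+ by a test of the difference itself for 5 of 118 tested pathway genes, or 4.24%, beside 3.7% of all tested genes. Without the 4 nerve root libraries, a fit with fewer libraries and less power, it did so for 0 genes. The differences, on the log2 scale with the SE and edgeR's adjusted p, were for Fgfr1 -0.36 ± 0.09 (0.0407), Trp53 -0.47 ± 0.11 (0.0399), Nupr1 -2.41 ± 0.65 (0.0470), Spred1 0.78 ± 0.18 (0.0399) and Yme1l1 0.51 ± 0.13 (0.0431). The summed Schwann cell markers in these groups were 67.5 to 147 CPM in Gcn2+/- GarsP278KY/+ and 71.2 to 574 CPM in Gcn2+/- Gars+/+ cords, and 79.4 to 633 CPM in Gcn2+/+ GarsP278KY/+ and 69.3 to 114 CPM in Gcn2+/+ Gars+/+ cords. The Gars effect on Cdsn differed between Gcn2-/- and Gcn2+/+ by -4.04 ± 0.57 (adjusted p = 0.00963, edgeR, a test passed by 0.0115% of all tested genes), the same direction as the levels of the 3 hormones in those groups. Cdsn had been named from earlier results of these data.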

How the results depend on the processing

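The mutant minus wild-type CPM differences of the 3 hormones moved by no more than 1 SD, the larger of the SDs of the mutant and wild-type groups, under every alternative run (scaling, sex, title numbers, nerve root libraries and leaving out each library). Leaving out 1 library or changing the scaling can hardly move a group mean by that much, so for these alternatives only the ranges are informative. With Gcn2+/+ they ranged over 2.90 to 4.27 CPM for Fgf21, 0.734 to 1.07 CPM for Adm2 and 0.307 to 0.403 CPM for Gdf15, and with Gcn2+/- over 1.62 to 2.30, 0.312 to 0.551 and 0.141 to 0.371 CPM. With Gcn2-/- they ranged over -0.0159 to 0.0103 CPM for Fgf21 and -0.0119 to 0.0558 CPM for Gdf15, and Adm2 was 0.

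Counts of called genes moved far more. For the Gars effect with Gcn2+/+ (110 genes), there were 72 without a filter on low counts, 658 with DESeq2, 201 without sex, 11 from the groups compared alone, 42 with the Schwann markers as covariate, 31 without the 4 nerve root libraries, and 47 to 600 on leaving out each library, the highest without Gcn2+/+ Gars+/+ replicate 1. With Gcn2+/- (31) these were 186 with DESeq2, 5 from the groups compared alone, 11 without the nerve root libraries and 18 to 66 on leaving out each library. With Gcn2-/- (2) they were 26 with DESeq2, 1 from the groups compared alone, 1 without the nerve root libraries and 1 to 3 on leaving out each library. The difference Gcn2-/- minus Gcn2+/+ (2) gave 35 with DESeq2, 8 without sex and 0 to 6 on leaving out each library. The difference Gcn2+/- minus Gcn2+/+ (644) gave 10 without the filter, 1718 with DESeq2, 0 from the groups compared alone, with the covariate or without the nerve root libraries, and 0 to 1784 on leaving out each library. Stress response targets that rose with Gcn2+/+ (3) were 7 with DESeq2, 6 without sex, 0 from the groups compared alone, 1 with the covariate and 1 to 4 on leaving out each library, and 0 rose with Gcn2+/- in any of 32 alternatives. The cause of these shifts was not tested.

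With the title number as a replicate block, whose meaning as a pairing is not stated, calls were 110 with Gcn2+/+, 4 with Gcn2+/-, 1 with Gcn2-/-, 0 for either difference, and 2 stress response targets. Shmt2 lost its call in 21 of 32 alternatives, Nupr1 in 5, Atf4 in 2 and Sesn2 in 1, while Calca kept its call in all 32 in each Gcn2 genotype. Calcb lost its call in 10 alternatives with Gcn2-/- (adjusted p up to 0.860, edgeR) and 2 with Gcn2+/-. Cdsn lost its difference between Gcn2-/- and Gcn2+/+ in 4. Depth limits the low groups, since each hormone had 6 counts or fewer in each group without mutant Gars or without Gcn2.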
